A study of Mus musculus with 24 samples.

Results

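The 40 genes described here encode proteins that build ribosomes in the nucleolus. They were taken from a list of nucleolar and ribosome biogenesis genes, and each was represented by its brightest probe. All 40 were on the array, among 20031 genes with a named probe, and all 40 entered each test reported here. As alternatives, a filter that asks for a signal well above background on every array kept 37 of them in the fits that hold flavopiridol arrays, and the authors' table gave 39. The cells were in vitro differentiated Th1 or Th2 cells of female C57BL/6 mice, and each of 24 conditions was measured on 1 two-colour array against naive CD4+CD62L+CD25-CD44lo T cells of the same strain and sex. Th1 and Th2 cells had received DMSO as vehicle, JQ1 at 50 or 500 nM, or flavopiridol at 1 or 10 µM, and each was measured once without stimulation and once after reactivation. The drugs were given for 6 hr, with 24 hr arrays in addition for DMSO and for 500 nM JQ1 in Th1 cells. For the Th2 DMSO arrays the title gives 24 hr but the source name 6 hr, which leaves their time unclear. How the cells were reactivated, and how many mice they came from, is not stated for these arrays. JQ1 displaces BET bromodomain proteins from acetylated chromatin. Flavopiridol inhibits P-TEFb, the kinase that releases paused RNA polymerase II into elongation. The arrays address how far gene expression in T helper cells depends on these steps, and here the question is asked of the ribosome biogenesis genes.

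Ribosomal RNA is transcribed in the nucleolus by RNA polymerase I as a long precursor. Small nucleolar ribonucleoproteins modify it, with box C/D particles guiding methylation of ribose and box H/ACA particles guiding the change of uridine to pseudouridine. Processing factors then cut and fold the precursor into the small and the large ribosomal subunit. Resting lymphocytes keep this work low and raise it when they are activated to grow and divide. The transcription factor Myc is a known activator of many of the genes involved.

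Values are log2 ratios of the sample (Cy3) over the naive cells (Cy5), so that 0 is the naive level and a difference of 1 is 2-fold. Both arrays of each unstimulated and reactivated pair lay on the same slide, so every reactivation response is a difference within a slide. Each flavopiridol array lay on another slide than its DMSO control, so no comparison of flavopiridol with DMSO levels is within a slide. No condition was repeated, and the error of each test is the variation of an effect between cell contexts. In Cy3, 48.8% to 52.0% of probes passed the scanner software's call of well above background on the DMSO arrays, 43.8% to 51.1% with JQ1 and 35.4% to 41.5% with flavopiridol. By the probe used for each, 37 of the 40 genes were well above background on all 24 arrays. The probe of Pes1 was on 20 arrays, that of Utp15 on 21 and that of Nob1 on 23. All of their misses were flavopiridol arrays, where their values are only upper bounds. A dimmer probe of Pes1, not used here, was well above background on 24. Of the lineage regulators, Tbx21 for Th1 lay at 5.13 to 6.80 on the Th1 arrays without flavopiridol and Gata3 for Th2 at 1.59 to 3.06 on the corresponding Th2 arrays, where Gata3 in Th1 cells did not pass 0.55. On the reactivated Th2 arrays with DMSO and 50 nM JQ1, Tbx21 lay at 4.64 and 3.34, against -0.02 and -0.05 unstimulated. Of the other Th1 markers, Ifng lay there at 6.20 and 5.70, Cxcr3 at 4.11 and 2.60 and Il18rap at 2.43 and 1.25. Il12rb2, at -0.20 and -0.12, and Il18r1, at -3.73 and -4.23, were not high on these arrays. Of the Th2 markers on the reactivated Th1 arrays with DMSO, at 6 and 24 hr, Il4 lay at 3.07 and 4.496 and Il13 at 3.71 and 4.604. Il1rl1 lay at 5.51 and 6.29, which is above its 3.91 in reactivated Th2 cells with DMSO. Il5 lay at 0.455 and 0.68 and Gata3 at -0.33 and 0.55. Ccr4 fell on reactivation of these cells, from 1.64 to 1.11 at 6 hr and from 1.82 to 0.90 at 24 hr. The B cell markers Cd79a, Cd79b and Ms4a1 averaged 0.47 to 0.97 on the Th1 and 2.11 to 2.60 on the Th2 arrays with DMSO, and over both cell types -0.13 to 1.70 with 500 nM JQ1 and -0.30 to 1.15 with 10 µM flavopiridol. Of these 3 genes, Cd79b and Ms4a1 were lower with each drug by the test used below. Both tested markers of CD8 T and NK cells, Cd8a and Cd8b1, were lower with 500 nM JQ1, with a median of -0.43, whereas with 10 µM flavopiridol Cd8b1 was higher by 1.11 and Cd8a, at 0.49, was not called. Of 3 tested myeloid markers, Csf1r was higher (2.02) and Itgam lower (-2.21) with 10 µM flavopiridol, and Csf1r was higher (0.47) with 500 nM JQ1. All 6 markers of CD4 T cells were lower with 500 nM JQ1, with a median of -0.50. With 10 µM flavopiridol 2 of them were higher and 1 lower. The part of these markers in the drug results was not tested. Since these are bulk samples, fewer cells of a type and less RNA per cell cannot be told apart.

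**Figure D1:**
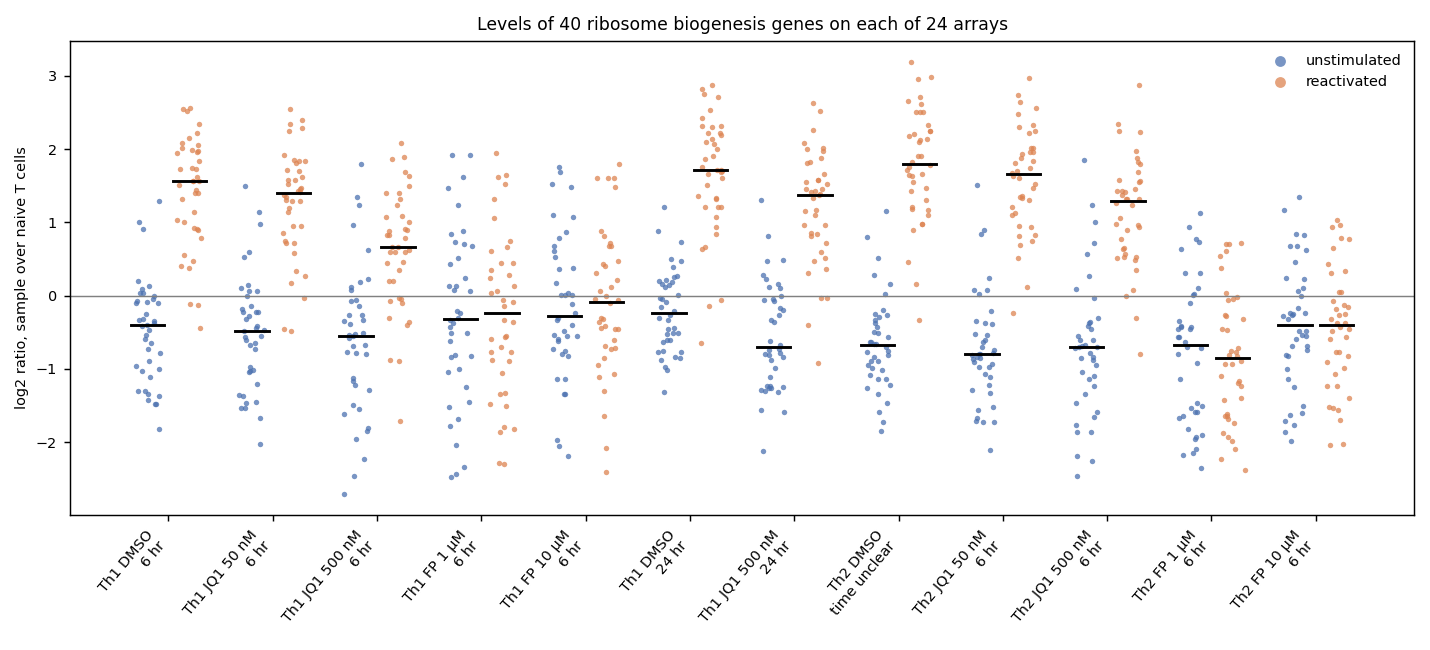
Levels of the 40 genes on each of the 24 arrays. Each point is 1 gene, the vertical axis is its log2 ratio over naive T cells, black lines are the medians of the 40 genes, and colours separate unstimulated from reactivated cells. The medians of reactivated cells lie at 1.56 to 1.80 with DMSO and at -0.85 to -0.08 with flavopiridol.

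Unstimulated Th1 and Th2 cells with DMSO held most of these transcripts near or below the naive level. The median of the 40 genes was -0.41 in Th1 cells at 6 hr, -0.24 in Th1 cells at 24 hr and -0.68 in Th2 cells. Against naive cells, 22 genes were lower (25% of all 12530 genes tested were lower) and 3 were higher (33.5% of all genes), by limma with Benjamini-Hochberg adjustment at 0.05. The counts moved with scaling, and so did those of all genes. After a shift to the spike-in probes 12 were lower (11.4% of all genes) and 5 higher (46.9%). With median centring 35 were lower (50.1% of all genes) and 1 higher (18%). Heatr1, a factor for transcription and processing of the small subunit precursor, lay lowest, at -1.81, -1.31 and -1.85 on the 3 arrays (mean -1.66, SE 0.14, limma adjusted p = 8.93e-05). Rrp9, the U3-specific protein of the box C/D particle that starts small subunit processing, lay at -1.48, -0.77 and -1.35. The 3 higher genes were nucleolin (Ncl), nucleophosmin (Npm1) and the polymerase subunit Polr1c. Ncl, an abundant protein of the nucleolus that binds the precursor, lay at 1.29, 1.21 and 1.16 (mean 1.22, SE 0.10, limma adjusted p = 1.02e-04). Npm1, a chaperone of ribosome assembly, lay at 0.91, 0.25 and 0.51, and its mean of 0.56 turned to -0.23 with median centring. The naive reference has the same description on every array and the dyes were not swapped, so this test leaves out the spread of naive cells and holds any dye effect of a probe.

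Reactivation raised all 40 genes in cells with DMSO, where 24.5% of all 13306 genes tested were higher (limma, Benjamini-Hochberg adjusted p below 0.05). With median centring it raised 39 of the 40 (19% of all genes), and after the spike-in shift also 39 (16.6%). Every gene was higher in each of the 3 pairs, a count that was not made for all genes. At least 2-fold higher were 35 of the 40 in Th1 cells at 6 hr, 37 at 24 hr and 36 in Th2 cells. Of all 13341 expressed genes 7.82%, 9.15% and 11.4% were. The median difference of the 40 genes was 2.09, against -0.05 over all genes tested, and single genes ranged from 0.27 to 3.47. Among markers of other cells, Cd79b of B cells (-1.18) and Cd8b1 of CD8 T cells (-0.29) were lower on reactivation, and all 6 markers of naive T cells were lower, with a median of -2.22. Their part in the result was not tested. By pair, the median of the 40 genes was 2.01 in Th1 cells at 6 hr, 1.82 in Th1 cells at 24 hr and 2.56 in Th2 cells. The rise brought the genes well above naive cells, with 37 higher (39.2% of all genes) and 1 lower (32.8%) and a median of 1.65 over the 3 reactivated DMSO arrays.

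The polymerase I genes differed widely among themselves. Polr1b, the second largest subunit of the enzyme, rose most of all 40. It lay at -1.37, -0.77 and -1.25 in unstimulated cells and at 2.06, 2.30 and 2.66 in reactivated ones (difference 3.47, SE 0.19, limma adjusted p = 3.00e-07). Polr1a, the largest subunit, went from between -1.42 and -0.76 to between 0.47 and 0.89. Polr1c, which polymerase I shares with polymerase III, started above the naive level, at 1.00, 0.39 and 0.80, and reached 1.75, 1.90 and 1.48. Its difference of 0.98 was the smallest of the 3 subunits.

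Among the 7 nucleolar factors the median rise was 2.76. Nolc1, a phosphoprotein that shuttles snoRNPs to the nucleolus, lay at -0.26, 0.16 and -0.94 before and at 2.56, 2.88 and 3.18 after reactivation (difference 3.22, SE 0.31, limma adjusted p = 6.56e-06). A second, dimmer probe of Nolc1 gave 1.40. Ddx21, a helicase of the nucleolus, rose by 2.85, Gnl3 (nucleostemin) by 2.86 and Mybbp1a by 2.76. The lowest rises were those of Npm1 with 0.87 and Tcof1 with 0.95. Tcof1 encodes treacle, which supports polymerase I transcription. It started at -1.48, -0.97 and -0.52 and ended near the naive level, at -0.11, -0.14 and 0.15.

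Transcripts for the core proteins of both modification particles rose. Of the box C/D group, Rrp9 rose by 3.16, Nop58 by 2.29, Nop56 by 1.84 and the methyltransferase fibrillarin (Fbl) by 1.78. Of the box H/ACA group, the pseudouridine synthase dyskerin (Dkc1) rose by 2.35, Gar1 by 2.05 and Nhp2 by 1.83. Nop10, the smallest protein of that particle, rose by 0.71 and lay close to the naive level in both states, from -0.84 to -0.43 before and from -0.13 to 0.46 after.

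All 11 small subunit and all 11 large subunit factors rose, with medians of 2.23 and 2.12. Heatr1 led the small subunit group with 2.80, and Utp15 and Bms1, a GTPase of that pathway, were lowest with 1.14 and 1.16. Rrs1 led the large subunit group. It lay at -1.11, -0.50 and -1.14 before and at 1.99, 2.32 and 2.61 after reactivation (difference 3.22, SE 0.21, limma adjusted p = 6.55e-07). Noc3l stood apart from the other large subunit factors. It stayed below naive cells in both states, at -0.73, -0.88 and -0.63 before and -0.45, -0.65 and -0.34 after, and its rise of 0.27 was the smallest of the 40. Against naive cells its reactivated mean of -0.48 was the only one called lower, and it lay at 0.038 after the spike-in shift.

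The other genes of the pathway, 120 tested genes in 5 lists of assembly factors, polymerase I machinery and the RNA exosome, were mostly higher too. Of these, 105 were higher, 2 lower and 13 not called, with a median of 1.32. Ppan, a large subunit factor, rose by 3.49. Myc lay at -0.05, 0.17 and -1.18 in unstimulated and at 2.52, 3.06 and 3.27 in reactivated cells with DMSO (difference 3.30, SE 0.41, limma adjusted p = 4.11e-05). These lists were drawn up with earlier results of the same arrays known.

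**Figure D2:**
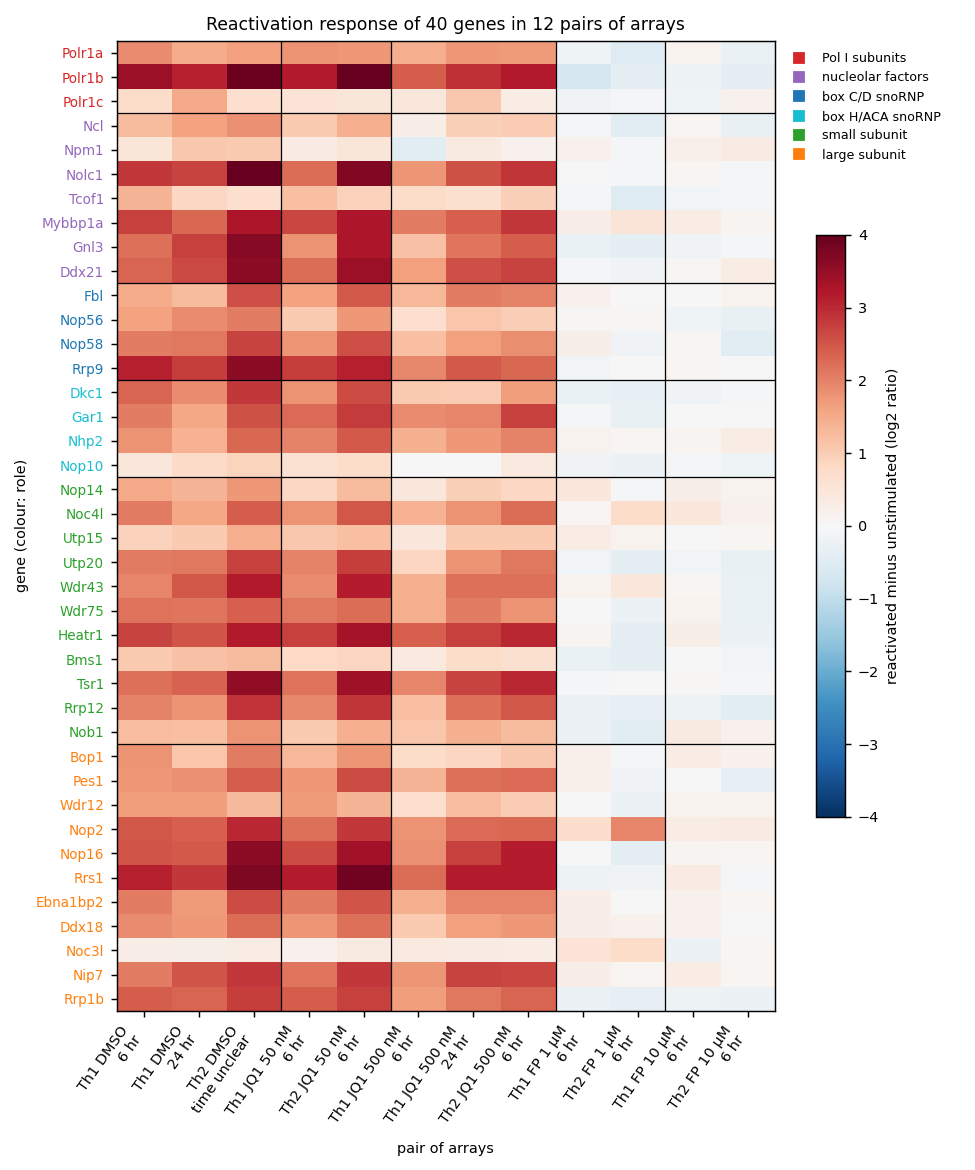
Reactivation response of each gene in each of the 12 pairs of arrays. Rows are the 40 genes in the order of their roles, columns are pairs grouped by treatment, and colour gives the log2 ratio of reactivated minus unstimulated cells. The columns of DMSO and JQ1 are almost wholly red, with pair medians from 1.34 to 2.56, and those of flavopiridol are near white, with pair medians from -0.13 to 0.07.

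Promoter sequence was examined because the 40 genes moved together and Myc binds the E-box CACGTG. Windows of 250 bases before to 50 bases after the annotated start (RefSeq, build GRCm38.p6) were held for 34 of the 40 genes. Bop1, Fbl, Npm1, Rrp12, Rrs1 and Tcof1 had none. The search used CACGTG, which reads the same on both strands, and the variant CACGCG with its reverse complement CGCGTG. A window was counted for each motif it held, also where copies overlapped. CACGTG was in the windows of 6 of the 34 genes (17.6%), against 8.1% of all 27025 genes with a window, 11.5% of the 10651 genes that were also tested for reactivation, and 18.6% of 102 other genes of the pathway. The variant was in 10 of the 34 (29.4%), against 10.5%, 18.8% and 34.3%. Windows of the 34 genes had a median GC content of 58.2%, those of all genes 52.8% and those of the tested genes 60.0%, and these shares were not tested. The 6 sites are shown because the count rests on them. Each is read 5′ to 3′ on the strand of its gene with up to 12 bases on either side and the E-box in capitals.
Nop2: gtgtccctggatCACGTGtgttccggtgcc
Pes1: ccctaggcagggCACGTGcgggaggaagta
Wdr43: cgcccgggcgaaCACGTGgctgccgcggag
Tsr1: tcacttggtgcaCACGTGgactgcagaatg
Utp20: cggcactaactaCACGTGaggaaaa
Mybbp1a: gtcttctgagccCACGTGtttg
They lie at chr6:125131811-125131840 (Nop2), chr11:3963965-3963994 (Pes1), chr17:71616220-71616249 (Wdr43), chr11:74898092-74898121 (Tsr1), chr10:88826765-88826789 (Utp20) and chr11:72441355-72441376 (Mybbp1a). Utp20 is on the minus strand and the others are on the plus strand. The E-box of Nop2 starts 60 bases before the annotated start. The other 5 sites begin 2 to 40 bases after it, within the first transcribed bases. The genes with a site rose on reactivation by 2.00 (Pes1) to 2.76 (Mybbp1a). Among genes with no CACGTG in their windows, Polr1b, Nolc1 and Rrp9 rose more and Noc3l, Nop10 and Polr1c rose less. The windows of Nolc1, Nop10 and Polr1c held the variant. Whether either motif goes with the size of the response was not tested.

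With 10 µM flavopiridol no reactivation response of these genes was detected. None of the 40 was called, by limma with Benjamini-Hochberg adjustment, and none had an unadjusted p below 0.05, where 0.0676% of all genes were called. The median difference was -0.00, and the genes ranged from -0.30 to 0.30. At 1 µM, 2 of the 40 were higher (3.89% of all genes), and the median was -0.07. One of these was Nop2, a methyltransferase of large subunit RNA. It went from -2.03 to -1.32 in Th1 cells and from -1.93 to 0.03 in Th2 cells with 1 µM (difference 1.34, SE 0.27, limma adjusted p = 0.0136). The Th2 cells account for most of that rise. With 10 µM Nop2 went from -1.14 to -0.85 and from -0.69 to -0.37. The other was Noc3l, with a difference of 0.64 at 1 µM, above its 0.27 with DMSO. A count of 2 in 40 is close to the share of all genes.

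The response itself was compared between drug and DMSO, as differences within slides on both sides. With 10 µM flavopiridol it was smaller in 38 of the 40 genes (16.3% of all genes), and the 2 others were Npm1 with -0.60 and Noc3l with -0.34. The median of these differences was -2.13, against 0.05 over all genes. With 1 µM it was smaller in 39 (18.6% of all genes), with a median of -2.02. Polr1b gives the size of it. Its response was 3.42, 3.07 and 3.92 in the 3 DMSO pairs and -0.21 and -0.35 in the Th1 and Th2 pairs with 10 µM (difference -3.75, SE 0.31, limma adjusted p = 2.38e-05). Rrp9 went from 3.10, 2.78 and 3.59 to 0.07 and 0.01 (difference -3.12, SE 0.24, limma adjusted p = 1.99e-05). For both genes all DMSO pairs lay above all flavopiridol pairs. Myc differed in the same way, by -3.11 (SE 0.64, limma adjusted p = 0.00320), with a response of 0.19 left at 10 µM. Of the 120 other genes of the pathway, 91 had a smaller and 2 a larger response.

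With 50 nM JQ1, reactivation raised 37 of the 40 genes (19.8% of all genes), with a median of 2.19, and the 3 not called were Polr1c (0.52), Npm1 (0.39) and Noc3l (0.28). No gene of the 40 differed in response from DMSO, where no gene of all 13306 did by limma, and 2 of the 40 had an unadjusted p below 0.05 (3.22% of all genes). At 500 nM reactivation raised 38 genes (19.2% of all genes), with a median of 1.77. Npm1 with 0.03 and Nop10 with 0.13 were not called. With median centring 34 were higher (9.89% of all genes), with a median of 1.43. After the spike-in shift 26 were (4.13%), with a median of 1.24 against -0.57 over all genes. The pair medians were 1.34 and 1.88 in Th1 cells at 6 and 24 hr and 1.99 in Th2 cells. On the reactivated Th1 array of 6 hr the spike-in probes lay at 0.76, above all other arrays, and with a shift to these probes the median response of that pair was -0.01.

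Only 5 of the 40 genes had a smaller response with 500 nM JQ1 than with DMSO by this test, and none a larger one (1.76% of all genes were lower). These were Dkc1, Rrp9, Nop56, Nop14 and Bms1, and the median of the 40 differences was -0.46. Dkc1 responded by 2.34, 1.90 and 2.82 with DMSO and by 1.04, 1.02 and 1.66 with 500 nM JQ1 (difference -1.11, SE 0.27, limma adjusted p = 0.0497). All DMSO pairs lay above all JQ1 pairs. The count of 5 was 0 without the unstimulated Th2 DMSO array, 0 with the scanner software's ratios and 11 after the spike-in shift. The drug responses above share the 3 DMSO pairs, so they are given side by side and not compared with each other.

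The level of each gene was then compared between drug and DMSO over 4 contexts, Th1 and Th2 cells, each unstimulated and reactivated. In reactivated cells 10 µM flavopiridol lowered 38 of the 40 genes (31.7% of all 12429 genes tested were lower), with a median of -1.74 against -0.17 over all genes. With slide as a random block 31 were lower, and without the 10 µM array of reactivated Th2 cells 22. The same median was -2.87 with median centring, against -0.88 over all genes, and -2.50 after the spike-in shift, against -0.93. Rrs1 lay at 1.99 with DMSO and -1.65 with 10 µM in Th1 cells and at 2.61 and -2.04 in Th2 cells, the largest fall (difference -4.15, SE 0.23, limma adjusted p = 5.89e-05). Nip7 and Ebna1bp2, both large subunit factors, had differences of -3.05 and -3.04. By role, all 3 polymerase I genes, all 7 nucleolar factors, all 4 box C/D genes, all 11 small subunit factors, 3 of 4 box H/ACA genes and 10 of 11 large subunit factors were lower. Nop10 with 0.40 and Wdr12 with -1.22 were not called. Wdr12 lay at 0.38 with DMSO and -0.10 with the drug in Th1 cells and at 0.97 and -0.99 in Th2 cells, so that it was lower in both but unequally. The fall was deeper on the Th2 arrays, with a median of -2.30 against -1.45 on those of Th1 cells, but no gene of the 40 was called for a difference of the flavopiridol effect between Th1 and Th2 cells (0.0161% of all genes were called, and 1 of the 40 had an unadjusted p below 0.05, as had 12.9% of all genes). Myc was lower by 4.39.

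In unstimulated cells the 40 genes did not move one way. With 10 µM flavopiridol, 9 were higher (12.3% of all genes) and 4 lower (31.2%) on the loess scale, whereas with median centring 13 were lower (63.4% of all genes) and none higher, and after the spike-in shift 4 were lower (33.4%) and none higher. The 13 calls became 4 without the 10 µM array of unstimulated Th1 cells, 21 without the reactivated Th1 DMSO array of 6 hr and 7 with slide as a random block. Relative to the median of all genes, that of the 40 was higher by 0.54 with loess or the spike-in shift and by 0.43 with median centring. Polr1b lay at -1.37 with DMSO and 0.17 with the drug in Th1 cells and at -1.25 and 0.68 in Th2 cells (difference 1.74, SE 0.17, limma adjusted p = 0.000497). Dkc1 went from -0.32 to 1.75 and from -0.56 to 0.84 (difference 1.74, SE 0.32, limma adjusted p = 0.00496). Nop10, Nhp2, Fbl, Rrp9, Rrp1b, Rrp12 and Utp20 were the other higher genes, so that 3 of the 4 box H/ACA genes and 2 of the 4 box C/D genes were among the 9. Npm1, Polr1c, Noc3l and Rrs1 were lower. Npm1 lay at 0.91 with DMSO and 0.01 with the drug in Th1 cells and at 0.51 and -1.86 in Th2 cells (difference -1.63, SE 0.53, limma adjusted p = 0.0402). Polr1c went from 1.00 to -0.55 and from 0.80 to -0.59. Both Npm1 and Polr1c lay above naive cells without drug. Myc lay at -0.05 with DMSO and -1.82 with 10 µM in unstimulated Th1 cells and at -1.18 and -1.55 in those of Th2.

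The flavopiridol effect differed between the states for 30 of the 40 genes, all of them lower in reactivated cells (6.93% of all genes), with a median of -2.24. Polr1b again differed most (difference -3.95, SE 0.24, limma adjusted p = 0.00109). The same count was 11 with median centring (2.57% of all genes) and 1 after the spike-in shift (0.394%). The median differences there, -2.005 and -2.36, were about as large. Without the 10 µM array of unstimulated Th2 cells the count was 6. The difference between states is the same difference of differences as the comparison of reactivation responses above, so it is not a separate result. It was estimated without the 24 hr arrays and with its own spread. Over both states together, 10 µM flavopiridol lowered 10 genes (33.5% of all genes) and raised 1, Nop10 (15.4% of all genes), with a median of -0.75 against -0.22. A random block for slide left 3 lower and none higher. With median centring 29 were lower (66.7% of all genes) and none higher, with a median of -1.83 against -1.05 over all genes, and after the spike-in shift 20 were lower (57.4%) and none higher, with a median of -1.46 against -0.93. These shares of the 40 genes are near or below those of all genes. Nop10 lay at 0.80 on the loess scale and at 0.039 and 0.095 with these scalings, where it was not called. The falls were led by Rrs1 with -2.50, Nip7 with -1.93 and Ebna1bp2 with -1.93, although a dimmer second probe of Nip7 gave 0.53 and a dimmer one of Ebna1bp2 gave 0.39. At 1 µM, 16 were lower (35.4% of all genes) and 1 higher (16.2%). No gene of the 40 differed between 10 and 1 µM by limma (1.88% of all genes did), 1 had an unadjusted p below 0.05 (11.4% of all genes), and the differences ranged from -0.31 to 1.11.

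**Figure D3:**
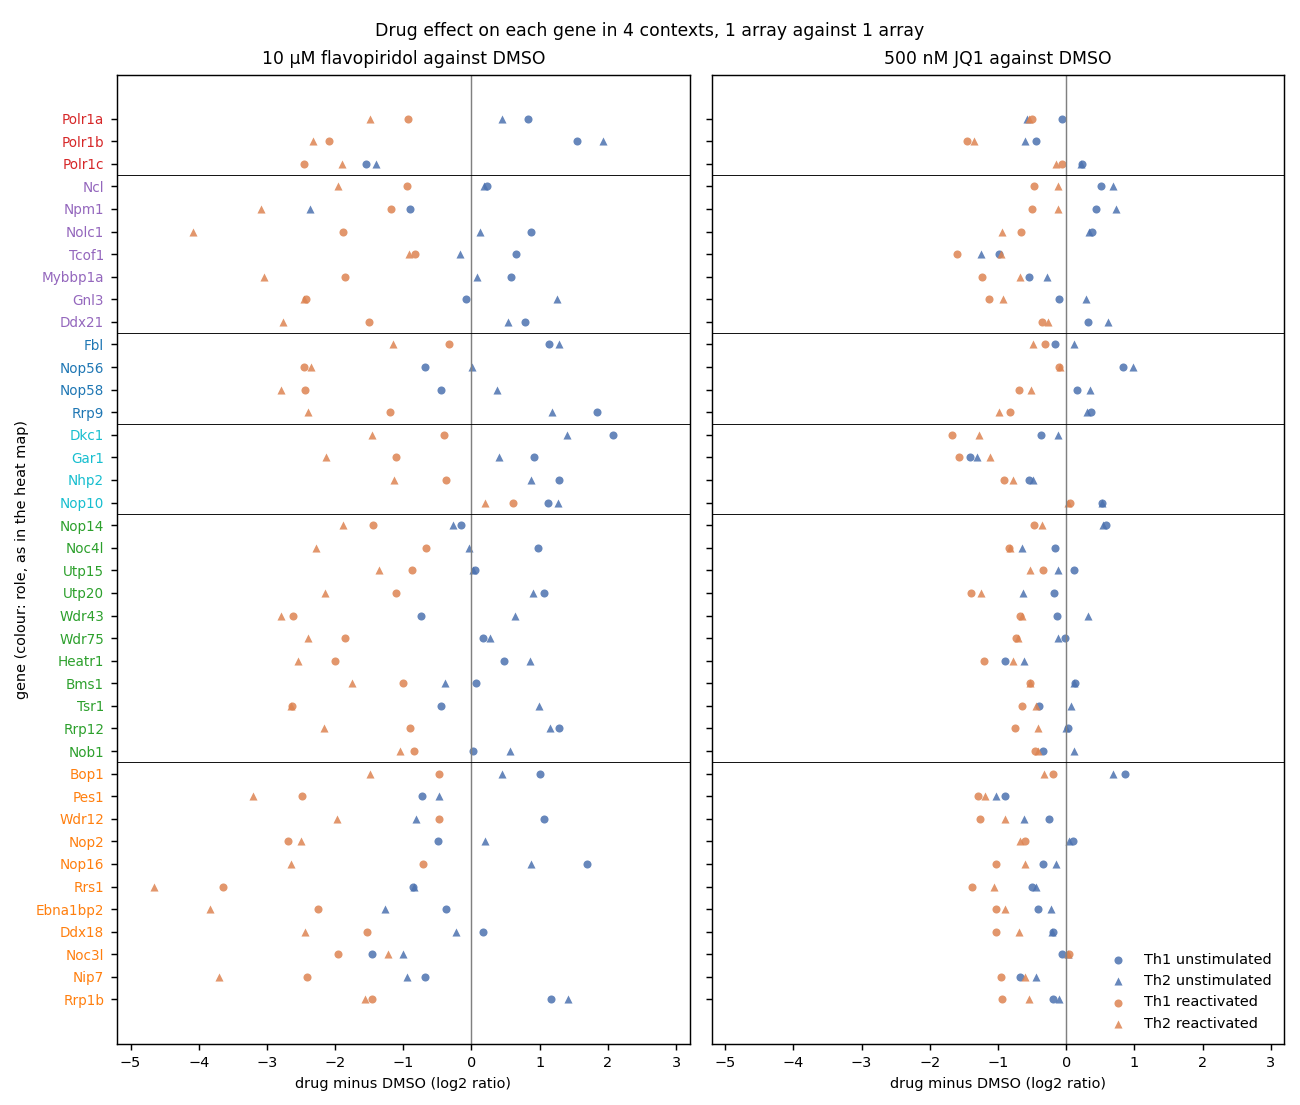
Drug effect on each of the 40 genes in 4 contexts. Each point is 1 array with 10 µM flavopiridol (left) or 500 nM JQ1 (right) minus 1 array with DMSO, on the log2 ratio scale, with Th1 as circles and Th2 as triangles. Reactivated cells with flavopiridol lie to the left of 0 for all genes but Nop10, while unstimulated cells spread on both sides, from -2.37 (Npm1) to 2.07 (Dkc1).

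JQ1 at 500 nM lowered 21 of the 40 genes over both states (29.9% of all 12910 genes tested) and raised none, with a median of -0.38 against -0.07 over all genes. With median centring 31 were lower (45.1% of all genes), with a median of -0.72 against -0.28, and after the spike-in shift 25 (29.7%), with a median of -0.82 against -0.52. The box H/ACA protein Gar1 fell most. Its 4 DMSO values were -0.54 and 1.52 in Th1 cells and -0.89 and 1.65 in Th2 cells, unstimulated and reactivated, and with 500 nM JQ1 they were -1.95, -0.05, -2.19 and 0.53 (difference -1.35, SE 0.09, limma adjusted p = 4.06e-06). Tcof1 fell by 1.19 (SE 0.11, limma adjusted p = 1.38e-05) and the difference of Pes1, a large subunit factor, was -1.10 (SE 0.10, limma adjusted p = 1.26e-05). Each of the 3 was lower in all 4 contexts. By role, 3 of 4 box H/ACA genes, 8 of 11 large subunit, 6 of 11 small subunit, 2 of 3 polymerase I and 2 of 7 nucleolar genes were lower, and none of the 4 box C/D genes was called. Among Th1 cells alone, where each JQ1 array of 500 nM shared a slide with its control at 6 and at 24 hr, 21 genes were lower as well. With the Th1 arrays of 6 hr alone, 12 were lower. With no term for the 4 contexts in the fit, none was called. Myc was lower by 0.62 (SE 0.11, limma adjusted p = 0.000960). Of 119 other genes of the pathway, 69 were lower and 1 higher.

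The JQ1 effect was larger in reactivated cells. There 33 of the 40 genes were lower (29% of all genes) and none higher, with a median of -0.73 against -0.08 over all genes, and the 7 not called were Polr1c, Npm1, Ncl, Nop56, Nop10, Bop1 and Noc3l. With median centring 39 were lower (44.9% of all genes), with a median of -1.18 against -0.36, and after the spike-in shift all 40 were lower, but so were 91.8% of all genes, with a median of -1.76 against -1.10. In unstimulated cells 12 were lower (23.7% of all genes) and 9 higher (14.8%), with a median of -0.09 against -0.05 over all genes. With median centring 14 were lower (26.8% of all genes) and 3 higher (5.39%). After the spike-in shift 4 were lower (9.05%) and 7 higher (10.2%), with a median of 0.05 against 0.09 over all genes. The 9 higher genes on the loess scale included Nop56 with 0.91, Bop1 with 0.77, Ncl with 0.60 and Npm1 with 0.58. Nop56 lay at 0.13 with DMSO and 0.97 with 500 nM JQ1 in unstimulated Th1 cells and at -0.26 and 0.71 in those of Th2. In reactivated cells it lay at 1.73 with DMSO and 1.63 with the drug in Th1 cells and at 1.79 and 1.69 in Th2 cells, and was not called. Myc lay at -0.05 with DMSO and -0.40 with 500 nM JQ1 in unstimulated Th1 cells and at -1.18 and -1.66 in those of Th2. On reactivated arrays Myc lay at 2.52 and 1.81 in Th1 and at 3.27 and 2.33 in Th2 cells. The difference between the states was called for 21 genes, all lower in reactivated cells (5.62% of all genes), with a median of -0.65. It measures the same quantity as the comparison of reactivation responses, which called 5 genes, from fewer arrays and with another estimate of the spread. These were led by Rrp9 (difference -1.25, SE 0.14, limma adjusted p = 0.00158), Dkc1 (-1.23, SE 0.19, limma adjusted p = 0.00620) and Nolc1 (-1.16, SE 0.18, limma adjusted p = 0.00505). The count was 0 with separate terms for cell type and state in place of the 4 contexts, 9 with the scanner software's ratios, 40 after the spike-in shift (92.1% of all genes were lower) and 9 without the reactivated Th1 DMSO array of 6 hr. No gene was called for a JQ1 effect that differed between Th1 and Th2 cells, among the 40 or among all genes tested, and none of the 40 had an unadjusted p below 0.05.

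The doses of JQ1 differed. With 50 nM none of the 40 genes was called by limma (0.341% of all genes were), 5 had an unadjusted p below 0.05 (13.2% of all genes), and the median was -0.11. Between 500 and 50 nM, 15 genes were lower with the higher dose (20.6% of all genes) and none higher, with a median of -0.27. Gar1 in reactivated Th1 cells lay at 1.52 with DMSO, 1.29 with 50 nM and -0.05 with 500 nM. In reactivated Th2 cells it lay at 1.65, 1.47 and 0.53. Th1 cells at 24 hr lay somewhat above those at 6 hr on another slide, by a median of 0.32 in unstimulated and 0.26 in reactivated cells with DMSO and by 0.06 and 0.63 with 500 nM JQ1. Time and slide cannot be told apart there, and no test was made. Against the DMSO array of the same slide, the median of the 40 differences for 500 nM JQ1 in reactivated Th1 cells was -0.74 at 6 hr and -0.45 at 24 hr, and -1.86 and -0.85 after the spike-in shift.

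**Figure D4:**
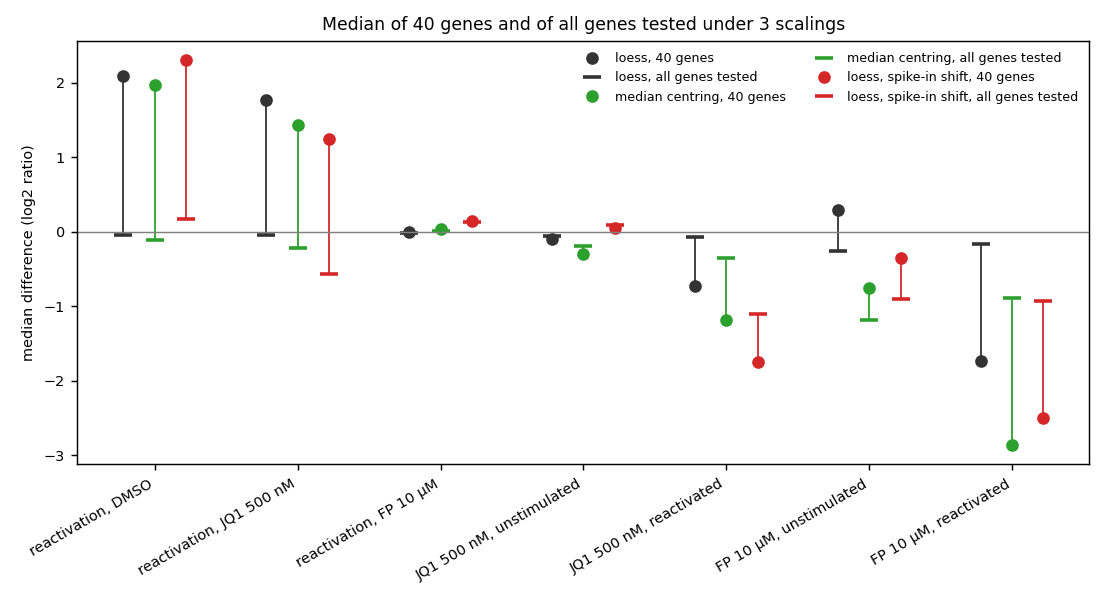
Median difference of the 40 genes (circles) and of all genes tested (dashes) under 3 scalings of the arrays, on the log2 ratio scale. Circle and dash shift together with scaling where a drug is compared with DMSO, so that the circle for flavopiridol in unstimulated cells lies at 0.29 with loess and at -0.75 and -0.36 with the other scalings, above its dash each time.

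Th1 and Th2 cells differed little in these genes. Over 10 pairs of matched treatment and state, 4 of the 40 were higher in Th1 cells (17% of all 13113 genes) and 5 were higher in Th2 cells (18.5%). Nolc1 (0.79), Ebna1bp2 (0.74), Ddx21 (0.66) and Nhp2 (0.38) were higher in Th1 cells, and Tcof1, Noc3l, Nop10, Polr1b and Pes1 in Th2 cells, by 0.30 to 0.43. The probe used for Pes1 was not well above background on 4 of the flavopiridol arrays used, so its difference rests in part on upper bounds. Nolc1 shows where its difference came from. It lay at -0.26 and -0.94 in unstimulated Th1 and Th2 cells with DMSO, at 2.56 and 3.18 in reactivated ones, and at 0.68 and -0.90 in reactivated ones with 10 µM flavopiridol, so that the order was not the same in all pairs. Only the DMSO pairs shared a slide, and in the other pairs slide and cell type cannot be told apart. None of the 9 calls was left with the DMSO arrays alone and none after the spike-in shift, and a random block for slide left 5 called. The 3 B cell markers were all lower in Th1 cells, with a median of -1.91, and both tested markers of CD8 T and NK cells were higher, with a median of 0.85. Their part in the result was not tested. In reactivated DMSO cells the median difference of the 40 was -0.30, against 0.003 over expressed genes. There Th1 cells at 6 hr stand against Th2 cells of unclear time, so cell type and time cannot be told apart. Myc lay at -0.05 and -1.18 in unstimulated Th1 and Th2 cells with DMSO and at 2.52 and 3.27 in reactivated ones. The reactivation response did not differ between Th1 and Th2 cells for any of the 40 by limma (0.122% of all genes were called). Of the 40, 14 had an unadjusted p below 0.05 (20.9% of all genes).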

How the data were processed

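RNA of mouse Th1 and Th2 cells, differentiated in vitro, was labelled with Cy3 and hybridised with Cy5-labelled RNA of naive CD4+ T cells to two-colour Agilent arrays, 24 arrays on 3 slides, with no dye swap. Per the file headers, Feature Extraction 10.7.1.1 read the spots, and the deposited scanner files hold median spot and local background intensities and a log10 ratio of Cy5 over Cy3. Log2 ratios are in a further table of the authors, whose normalization is not given in the sources used here. Its 34710 probes correlated with the values below at 0.981 to 0.996 per array, so its direction is the same, and its column medians were -0.02 to 0.01.

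Intensities were background-corrected (normexp, offset 50) and loess-normalized within arrays in limma 3.58.1 (R 4.3.3), control and outlier spots were left out, and spots of a probe were averaged. Of 55681 probes, 26448 carried 1 gene symbol. Median spot signals were used. The number of arrays limits the precision. A gene was tested when well above background in Cy3 on at least 3 arrays of a fit, by lmFit and eBayes with Benjamini-Hochberg adjustment over all genes tested and a threshold of 0.05.

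Groups came from the sample labels. Reactivation was fitted over 24 arrays with the pair as a block, each drug over 12 arrays with cell type and state as a block, and Th1 against Th2 over 20 arrays with treatment and state as a block. Nothing states that conditions came from separate cultures, so p-values measure the spread between contexts. The 40 genes, the other pathway lists, the markers and the promoter motifs were chosen with earlier results of these data known. All 40 genes and Myc could be named. Full statistics of the 40 were limited to the 3 largest rises and the 3 largest falls of a comparison. Myc is not given for every comparison. Effects within each state, and the spike-in shift without 1 array, were added after the values were seen. Alternatives were median centring, a shift to the spike-in probes, Cy3 alone, the software's ratios, the authors' table, other filters and probe rules, other blocks and single arrays left out. One gene of the marker lists is not reported here. The fits were tested on simulated data.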

Additional observations from a re-analysis of the deposited data

Results flagged for a closer look

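The results below were singled out because the test of a difference between groups passed the threshold (limma with Benjamini-Hochberg adjustment), and their values stand in the comparisons above. The reactivation response was smaller with 10 µM flavopiridol than with DMSO for 38 of the 40 genes, with the largest differences for Polr1b (-3.75), Nolc1 (-3.23) and Rrp9 (-3.12). With 1 µM it was smaller for 39 genes, led by Polr1b (-3.98), Rrs1 (-3.39) and Nolc1 (-3.24). With 500 nM JQ1 it was smaller for 5 genes, led by Dkc1 (-1.11), Rrp9 (-0.94) and Nop56 (-0.93). These 3 comparisons share the DMSO pairs. The values of Nolc1 are those of its brightest probe, and a second probe moved less on reactivation and with 10 µM flavopiridol. The effect of 10 µM flavopiridol on the level was lower in reactivated than in unstimulated cells for 30 genes, led by Polr1b (-3.95), Nolc1 (-3.48) and Rrp9 (-3.31). That of 500 nM JQ1 was lower for 21 genes, led by Rrp9 (-1.25), Dkc1 (-1.23) and Nolc1 (-1.16). Both effects by state measure the same quantity as the responses against DMSO, in fits with fewer arrays. No sample group held 4 arrays, so single arrays were not screened against their group.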

How the results depend on the processing

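Counts below are of the 40 genes called. Single arrays mattered little for the DMSO reactivation response (39 to 40 with any array left out), for reactivation with 500 nM JQ1 (37 to 38) or with 10 µM flavopiridol (0), for the response with 10 µM flavopiridol against DMSO (37 to 39), and for reactivated (37 to 38) and unstimulated cells (22 to 26) against naive cells. They mattered more for levels against DMSO. Flavopiridol gave 6 to 21 over both states (without the Th1 DMSO arrays of 6 hr, reactivated and unstimulated), 22 to 39 in reactivated cells (22 without the Th2 10 µM array), 4 to 21 in unstimulated cells (without the Th1 10 µM unstimulated and the reactivated Th1 DMSO array of 6 hr) and 6 to 35 for the difference between states (6 without the unstimulated Th2 10 µM array). JQ1 gave 18 to 26 over both states, 27 to 33 in reactivated cells, 11 to 22 in unstimulated cells (11 without the Th2 DMSO array) and 9 to 24 for the difference between states (9 without the reactivated Th1 DMSO array of 6 hr). The JQ1 response against DMSO gave 0 to 4 (0 without the unstimulated Th2 DMSO array), Th1 against Th2 5 to 13 (5 without the unstimulated Th1 DMSO array of 6 hr), and both drug effects by cell type and the response of Th1 against Th2 gave 0.

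After the spike-in shift the counts were 20 for flavopiridol against DMSO, 4 in unstimulated cells with the direction turned, 1 for its difference between states and 1 between cell types, 11 for JQ1 in unstimulated cells and 40 for its difference between states, 11 for the JQ1 response (0 without the reactivated Th1 500 nM array), 0 for Th1 against Th2 and 7 for their response. With median centring they were 29, 13 (turned) and 11 for flavopiridol over both states, in unstimulated cells and between states, and 2 for Th1 against Th2. With slide as a random block, flavopiridol gave 3 over both states and 7 in unstimulated cells, and Th1 against Th2 gave 5. The block could not be estimated for the effects by cell type. With no block for pair or context, JQ1 gave 0 over both states, 20 in reactivated and 7 in unstimulated cells, 0 between states and 1 for the response, and Th1 against Th2 gave 3. Th1 arrays alone gave 4 for flavopiridol and 12 for JQ1. The software's ratios gave 18 and 9 for the differences between states of flavopiridol and JQ1 and 0 for the JQ1 response, which was 3 with no filter. Th1 against Th2 gave 5 with the mean over probes and 0 with DMSO arrays alone. Among genes with full statistics, 879 alternative values kept their call, 149 kept only their direction and 2 turned: Noc3l in reactivated against naive cells after the spike-in shift (0.038) and Npm1 in unstimulated against naive cells with median centring (-0.23). The cause of these changes was not tested.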

Other observations

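The 5 lists of other pathway genes differed in size of response. On reactivation with DMSO (limma, Benjamini-Hochberg adjusted p below 0.05), 46 of 49 further large subunit factors were higher (24.5% of all genes) and none lower, with a median of 1.41, as were 37 of 42 small subunit factors with a median of 1.40. Factors that assemble snoRNPs rose in 6 of 7 cases, with a median of 1.12, and the other, Nufip1, was lower (-0.67). Of 8 further genes of the polymerase I machinery, the subunits Polr1d and Polr1e and the initiation factors Rrn3, Ubtf, Taf1a, Taf1b, Taf1c and Taf1d, 6 were higher, with a median of 1.00, and Polr1d (0.11) and Ubtf (-0.05) were not called. The RNA exosome, which trims and degrades precursor RNA, had the lowest median, 0.68, with 10 of 14 genes higher and 1, Exosc8, lower (-0.60). The order of the lists was not tested.

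With 10 µM flavopiridol in reactivated cells, 41 of 49 large subunit factors, 34 of 41 small subunit factors, 6 of 7 snoRNP assembly factors, 6 of 8 genes of the polymerase I machinery and 9 of 13 exosome genes were lower (31.7% of all genes). Nufip1 was higher (0.65). Their medians lay between -1.66 and -1.52. The deepest fall was that of the exosome gene Exosc6, at -4.99, and the next that of the large subunit factor Brix1, at -4.42. With 500 nM JQ1 over both states, 28 of 49 large subunit and 26 of 41 small subunit factors were lower (29.9% of all genes). Of the 8 genes of the polymerase I machinery 2 were lower, a share close to that of all genes, and Polr1d was higher (0.33).

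Some of the 40 genes had further, dimmer probes on the array, and most followed the brighter probe over the 24 arrays. Those of Ddx18 and Tsr1 correlated with it at r = 0.995 and r = 0.994. A second probe of Nip7 did not (r = -0.16), with 0.39 on reactivation against 2.47 for the brighter probe. For Ebna1bp2 a dim probe did not either (r = -0.02), with 0.98 against 2.12, while its other one did (r = 0.92). For Pes1 a second probe gave 0.21 for 10 µM flavopiridol against -1.72 (r = 0.59), and for Ncl 0.33 against -0.62 (r = 0.43). For Nolc1 a second probe gave 1.40 on reactivation against 3.22 and -0.10 for 10 µM flavopiridol against -1.24 (r = 0.73). The cause was not tested.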
